A study of Mus musculus with 6 samples.

Results

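Annexins and S100 proteins are small families of calcium-binding proteins, and 10 of their genes that are known for responding to tissue injury were followed here in mouse liver. They were 4 annexin genes, Anxa1, Anxa2, Anxa3 and Anxa5, and 6 S100 genes, S100a4, S100a6, S100a8, S100a9, S100a10 and S100a11. They were taken by gene symbol from a table of 17975 genes, and all 10 were present and had enough counts to be tested. RNA from whole liver of 3 WT mice and 3 Hom mice was sequenced. The Hom mice carry floxed NEK7 alleles and a Cre recombinase under the albumin promoter (Alb-Cre), a promoter of hepatocytes, so that NEK7, a mitotic kinase and a part of the NLRP3 inflammasome, is deleted in those cells. The control mice are labelled WT, and whether they carried a floxed allele or Cre is not given in the labels, nor are the age and sex of the 6 mice. The comparison asks which of these genes differ between livers with and without hepatocyte NEK7.

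Annexins bind to acidic phospholipids when calcium rises, and they act in membrane repair, vesicle traffic and the control of inflammation. S100 proteins change shape on binding calcium and then attach to target proteins, and several annexins are among these targets. In the healthy liver hepatocytes hold little of most of them, while bile duct cells, fibroblasts, endothelial cells and leukocytes hold more. S100A8 and S100A9 are the main cytosolic proteins of neutrophils.

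Of the 10 members, 5 rose in Hom livers and 0 fell. Anxa2, Anxa3, Anxa5, S100a6 and S100a11 passed an adjusted p of 0.05 (edgeR's quasi-likelihood test on all 13805 genes with enough counts, with Benjamini-Hochberg adjustment), and in each of them all 3 Hom livers lay above all 3 WT livers. Among all tested genes, 21.5% were higher and 20.1% lower by the same test, and 28.7% had all Hom livers above all WT livers. DESeq2 also gave 5 higher and 0 lower members, against 22.4% and 20.8% of the genes it tested, and 0 members were lower at an unadjusted p under 0.05. The median log2 fold change of the 10 members was 1.21, against -0.0018 over all tested genes, and it was 2.03 without WT replicate 1 and 0.79 without WT replicate 2. The 5 members that did not pass were Anxa1, S100a4, S100a8, S100a9 and S100a10. The 5 that rose differed by 2.74 to 5.65 times between groups, and S100a11 had the largest log2 fold change among the members.

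Depth was nearly equal, with deposited counts summing to between 19349418 and 19730236 per liver. Libraries were scaled with TMM factors of 0.81 to 1.23, and values below are counts scaled to a library of equal size (CPM) after this scaling unless stated otherwise. Factors lay between 0.81 and 0.92 for WT and between 1.09 and 1.23 for Hom, so fold changes on library size alone lie higher than those after TMM scaling. Nek7 itself had at least 1036 counts in every WT liver and at most 439 in every Hom liver. Some libraries stand apart from their group. Hom replicate 1 had 0 counts of Ddx3y and Kdm5d, which lie on the Y chromosome, against at least 243 elsewhere. The groups were thus not balanced for Y-linked RNA, and the fit holds no term for sex. Without Hom replicate 1, 5 members were higher, as were 19.2% of all tested genes. WT replicate 1 had high counts of neutrophil genes and WT replicate 3 of a few epithelial genes, which are described beside the members they touch. Hepatocyte markers were measured as a check of the tissue, and Alb alone had at least 960702 counts in every liver.

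**Figure D1:**
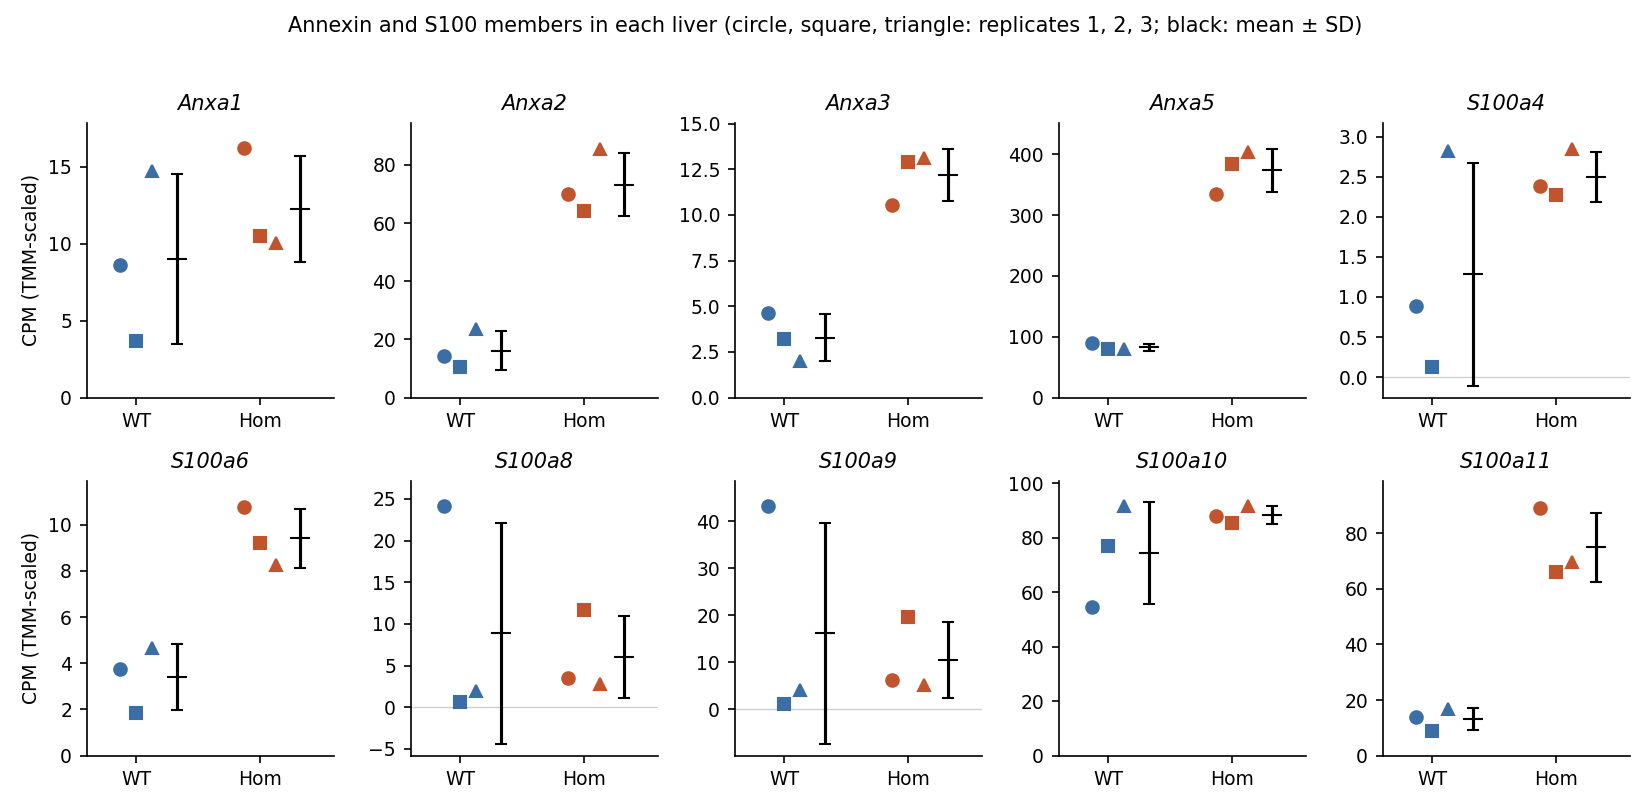
Level of each of the 10 members in each liver, in CPM after TMM scaling (each panel has its own linear axis), for 3 WT livers (blue) and 3 Hom livers (orange), with the mean and SD in black. In Anxa2, Anxa3, Anxa5, S100a6 and S100a11 the 3 Hom livers sit above the 3 WT livers, while S100a8 and S100a9 are highest in WT replicate 1.

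Anxa5 encodes annexin A5, which binds phosphatidylserine on the surface of dying cells. It was at 89.2, 80.1 and 79.3 CPM in WT livers 1, 2 and 3, and at 334.6, 384.6 and 403.0 CPM in Hom livers 1, 2 and 3. The lowest Hom liver was 3.75 times the highest WT liver. The means were 82.9 ± 5.53 CPM (SD, n = 3 mice) and 374.1 ± 35.4 CPM (SD, n = 3 mice). This was a log2 fold change of 2.17 (SE, the standard error of this change, 0.11), with an adjusted p of 1.59e-04 (edgeR). Anxa5 varied least within the WT group among the members, with an SD of 6.67% of its mean.

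S100a11 encodes a partner of annexins A1 and A2 that is found in epithelia and takes part in membrane repair. It was at 14.1, 8.92 and 16.8 CPM in WT livers 1, 2 and 3, and at 89.2, 66.0 and 69.8 CPM in Hom livers 1, 2 and 3. The groups were far apart, with the lowest Hom liver at 3.93 times the highest WT liver. Hom livers exceeded WT livers by a log2 fold change of 2.50 (SE 0.24, adjusted p = 6.41e-04, edgeR).

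Anxa2 encodes annexin A2, which holds plasminogen and its activator at the cell surface in a complex with S100A10. It was at 14.2, 10.5 and 23.5 CPM in WT livers 1, 2 and 3. In Hom livers 1, 2 and 3 it was at 70.1, 64.3 and 85.3 CPM. All Hom livers were at least 2.73 times the highest WT liver, WT replicate 3. Its log2 fold change was 2.19 (SE 0.28, adjusted p = 0.00172, edgeR).

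Anxa3, whose product is abundant in neutrophils, had fewer counts. It was at 4.64, 3.21 and 2.03 CPM in WT livers 1, 2 and 3, and at 10.5, 12.9 and 13.1 CPM in Hom livers 1, 2 and 3. Between groups the log2 fold change was 1.88 (SE 0.29, adjusted p = 0.00296, edgeR). Its order among WT livers was not that of Anxa2, since WT replicate 3 was the lowest here and the highest there.

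S100a6 encodes calcyclin, a protein of fibroblasts and of epithelial and mesothelial cells. It was at 3.74, 1.86 and 4.67 CPM in WT livers 1, 2 and 3, and at 10.8, 9.19 and 8.28 CPM in Hom livers 1, 2 and 3. The gap between groups was the narrowest of the 5 genes that rose, with the lowest Hom liver at 1.77 times the highest WT liver. The log2 fold change was 1.45 (SE 0.31, adjusted p = 0.0109, edgeR).

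Promoter sequences were looked up for the members that moved together. A RefSeq table of promoters on GRCm38.p6 held 8 of the 10 members, without Anxa3 and S100a10, and the 250 bases before the annotated start were searched on both strands for 3 motifs. These were TGANTCA, the site of AP-1 (dimers of Jun and Fos proteins), TATAAA, the TATA box, and GGGCGG, the GC box. None of the 3 overlaps another in these windows. TGANTCA was present in 2 of the 8 promoters, those of Anxa2 and S100a11, and in 6.75% of all 32851 promoters of this length in the table. Both of those genes rose, and both promoters are shown 5′ to 3′ with TGANTCA and TATAAA in capitals. The Anxa2 window is chr9:69453433-69453682, plus strand, and the S100a11 window is chr3:93520246-93520495, plus strand.
Anxa2: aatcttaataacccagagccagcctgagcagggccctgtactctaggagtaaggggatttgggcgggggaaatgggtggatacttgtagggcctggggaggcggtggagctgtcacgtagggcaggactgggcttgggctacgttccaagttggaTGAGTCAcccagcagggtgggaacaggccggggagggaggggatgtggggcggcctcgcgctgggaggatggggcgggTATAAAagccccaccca
S100a11: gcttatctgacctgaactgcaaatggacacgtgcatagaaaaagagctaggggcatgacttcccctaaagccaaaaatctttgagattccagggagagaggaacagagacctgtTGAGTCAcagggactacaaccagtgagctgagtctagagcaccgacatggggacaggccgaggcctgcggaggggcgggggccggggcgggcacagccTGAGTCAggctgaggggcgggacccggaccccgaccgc
In Anxa2 the match, TGAGTCA, begins 95 bases before the start, and in S100a11 the same letters begin 136 and 38 bases before it. Each of these promoters also holds 3 GC boxes, a motif of 32.7% of all promoters. The promoters of Anxa5 and S100a6, which also rose, hold none of the 3 motifs. TATAAA was found in 4 of the 8 promoters, those of Anxa1, Anxa2, S100a4 and S100a8, against 12.4% of all promoters. A match of letters is a description and not evidence of binding.

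S100a8 and S100a9 encode the subunits of calprotectin, a complex that neutrophils and monocytes carry and release in inflammation. S100a8 was at 24.2, 0.58 and 1.90 CPM in WT livers 1, 2 and 3, and at 3.55, 11.7 and 2.80 CPM in Hom livers 1, 2 and 3. S100a9 was at 43.3, 1.22 and 4.06 CPM in WT livers 1, 2 and 3, and at 6.21, 19.7 and 5.26 CPM in Hom livers 1, 2 and 3. Both genes were highest in a WT liver, replicate 1, and second highest in Hom replicate 2, and the other 4 livers were low. Their rounded counts spanned 48.1 times (S100a8) and 40.8 times (S100a9) between the lowest and the highest liver, against 7.49 times for Anxa5. The log2 fold change was -0.57 for S100a8 (SE 1.18, adjusted p = 0.722, edgeR). For S100a9 it was -0.64 (SE 1.14, adjusted p = 0.676, edgeR). These SEs leave room for a difference of several times in either direction.

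The direction for this pair rested on WT replicate 1. Without that liver the log2 fold changes were 2.26 for S100a8 and 1.97 for S100a9, and neither passed (adjusted p = 0.0749 and 0.0905, edgeR). Other neutrophil genes were also high in that liver. Ngp, which encodes neutrophilic granule protein, had 1021 counts in WT replicate 1, and the other WT livers had 0 and 1. Hom livers 1, 2 and 3 had 24, 183 and 18 counts. The granule genes Camp, Ltf, Mpo and Elane had 146, 355, 257 and 100 counts in WT replicate 1 and at most 3 in the other WT livers. Of the 12 neutrophil markers listed, 10 were highest in WT replicate 1 by CPM. Their summed level was 144.3 CPM there, 8.59 and 12.2 CPM in the other WT livers and between 20.5 and 48.6 CPM in the Hom group. Of the 7 markers with enough counts to be tested, 0 passed in either direction by edgeR or DESeq2, and 0 had an unadjusted p under 0.05. Without WT replicate 1, Csf3r, the receptor gene of the growth factor G-CSF, passed at a log2 fold change of 1.58 (adjusted p = 0.0120, edgeR). In WT replicates 2 and 3, 2 of the 12 markers had no count in each liver. The part of neutrophil RNA in the result for S100a8 and S100a9 was not tested.

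**Figure D2:**
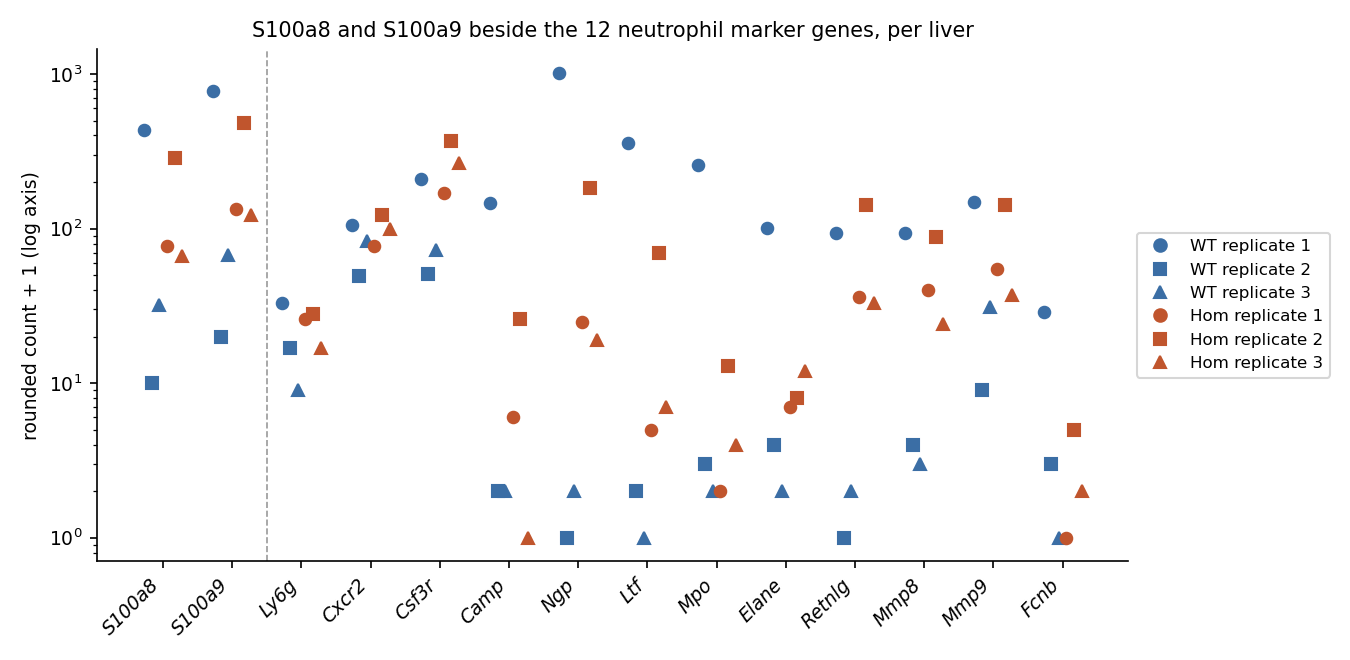
Rounded counts plus 1, on a log axis, of S100a8 and S100a9 (left of the dashed line) and of 12 neutrophil marker genes (right) in each of the 6 livers. WT replicate 1 (blue circles) is the highest of the WT livers for S100a8 and S100a9 and for Ngp, at 1021 counts, and Hom replicate 2 (orange squares) is the highest Hom liver for both S100 genes.

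While their levels varied, the ratio of S100a8 to S100a9 did not vary much. Within a liver, S100a8 had 0.56, 0.47 and 0.47 counts per count of S100a9 in WT livers 1, 2 and 3, and 0.57, 0.59 and 0.53 in Hom livers 1, 2 and 3. The log2 ratio was higher by 0.16 (SE 0.086) in Hom livers (exact two-sided permutation test, p = 0.2, adjusted p = 0.2 over 2 ratios). The same test can give no p under 0.1 with 3 mice against 3. Both genes lie next to each other on chromosome 3, with no annotated gene between them in the RefSeq annotation of GRCm38.p6. Their promoters are printed in the same way for a comparison of this pair, 250 bases before each start, at chr3:90668821-90669070, plus strand, and chr3:90695722-90695971, minus strand.
S100a8: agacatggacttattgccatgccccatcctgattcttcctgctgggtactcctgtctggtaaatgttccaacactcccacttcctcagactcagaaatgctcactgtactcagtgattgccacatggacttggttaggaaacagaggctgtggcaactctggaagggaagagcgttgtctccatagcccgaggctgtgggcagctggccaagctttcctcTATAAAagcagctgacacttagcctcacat
S100a9: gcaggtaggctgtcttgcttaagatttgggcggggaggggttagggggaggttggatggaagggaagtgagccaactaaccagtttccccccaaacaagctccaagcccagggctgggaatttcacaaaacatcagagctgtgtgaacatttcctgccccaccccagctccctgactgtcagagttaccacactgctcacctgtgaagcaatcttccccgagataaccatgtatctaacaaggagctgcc
The S100a8 promoter has TATAAA 30 bases before the start and the S100a9 promoter does not have these letters, while S100a9 has a GC box that S100a8 lacks. Neither holds TGANTCA.

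S100a10 encodes p11, an S100 protein that does not need calcium and pairs with annexin A2. It was at 54.5, 77.1 and 91.7 CPM in WT livers 1, 2 and 3, and at 88.2, 85.3 and 91.6 CPM in Hom livers 1, 2 and 3. The groups overlapped, because WT replicate 3 was as high as the highest Hom liver. At 0.25, its log2 fold change did not pass (SE 0.18, adjusted p = 0.294, edgeR). With libraries scaled by their size alone, which moved the median of all genes from -0.0018 to 0.45, S100a10 was at a log2 fold change of 0.72 and passed (adjusted p = 0.00841, edgeR), but so did 47.6% of all tested genes. It also passed, at 0.52, with a gene length correction and the replicate number as a block (adjusted p = 0.0393, edgeR), where 16.5% of all tested genes were higher. In each of these fits 6 members were higher. S100a10 was also the only member whose deposited counts were fractional, in 5 of 6 livers, which is how the counting tool splits reads that match several places.

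The balance of Anxa2 and S100a10 can be read within each liver, where the scaling of libraries plays no part. Per count of S100a10 there were 0.26, 0.14 and 0.26 counts of Anxa2 in WT livers 1, 2 and 3. In Hom livers 1, 2 and 3 there were 0.80, 0.75 and 0.93. The groups did not overlap, and the log2 ratio was higher by 1.98 (SE 0.32) in Hom livers, or 3.94 times. With an exact two-sided permutation test the p was 0.1, the smallest that 3 mice against 3 allow, and 0.2 after adjustment over 2 ratios. The log2 difference stayed between 1.67 and 2.14 with any 1 liver left out.

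**Figure D3:**
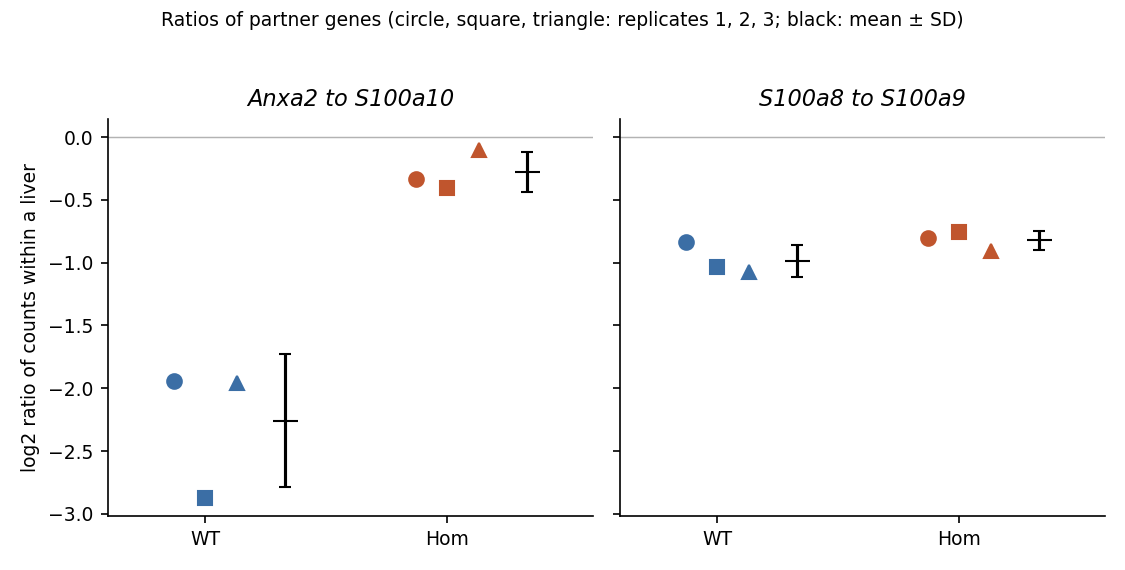
Log2 ratio of the counts of Anxa2 to S100a10 (left) and of S100a8 to S100a9 (right) within each liver, for 3 WT (blue) and 3 Hom livers (orange), with the mean and SD in black. The Anxa2 to S100a10 ratio is higher in every Hom liver than in every WT liver, by 1.98 on average, while the S100a8 to S100a9 ratio lies near -1 in all 6 livers.

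Anxa1 encodes annexin A1, which dampens inflammation through formyl peptide receptors. It was at 8.60, 3.66 and 14.7 CPM in WT livers 1, 2 and 3, and at 16.2, 10.5 and 10.0 CPM in Hom livers 1, 2 and 3. WT replicate 3 was above Hom replicates 2 and 3. Its log2 fold change was 0.44 (SE 0.45, adjusted p = 0.462, edgeR), and it was 0.98 without WT replicate 3 and 0.069 without WT replicate 2.

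S100a4, a gene of fibroblasts and leukocytes, had the fewest counts of the members. It had 16, 2 and 46 counts in WT livers 1, 2 and 3, and 51, 55 and 66 in Hom livers 1, 2 and 3. In CPM the groups overlapped, with WT replicate 3 at 2.83 and the Hom livers at 2.27 to 2.84. The log2 fold change was 0.96 (SE 0.76, adjusted p = 0.344, edgeR). Without WT replicate 3 it was 2.23 and passed (adjusted p = 0.0391, edgeR), which made 6 members higher, against 17.2% of all tested genes. Without WT replicate 2 the value was 0.43.

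The WT livers differed from each other. WT replicate 3 was the highest WT liver for 6 of the 10 members, and WT replicate 2 was the lowest for 7. WT replicate 3 also had 592 counts of Anxa8, against 12 and 18 in the other WT livers and at most 126 in any Hom liver. Likewise S100a14 had 113 counts there, against 4 and 18 in the other WT livers. Anxa8 and S100a14, both known from stratified epithelia, were singled out after their values were seen. Whether these genes and the level of Anxa1 and S100a4 in WT replicate 3 have a common source was not tested. In the Hom group, replicate 1 was the highest for Anxa1, S100a6 and S100a11 and had 181 counts of the mesothelial marker Msln, against 5 and 9 in Hom replicates 2 and 3. Without Hom replicate 1, the log2 fold changes were 0.19, 1.35 and 2.35 for these 3 genes, and S100a6 and S100a11 still passed.

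**Figure D4:**
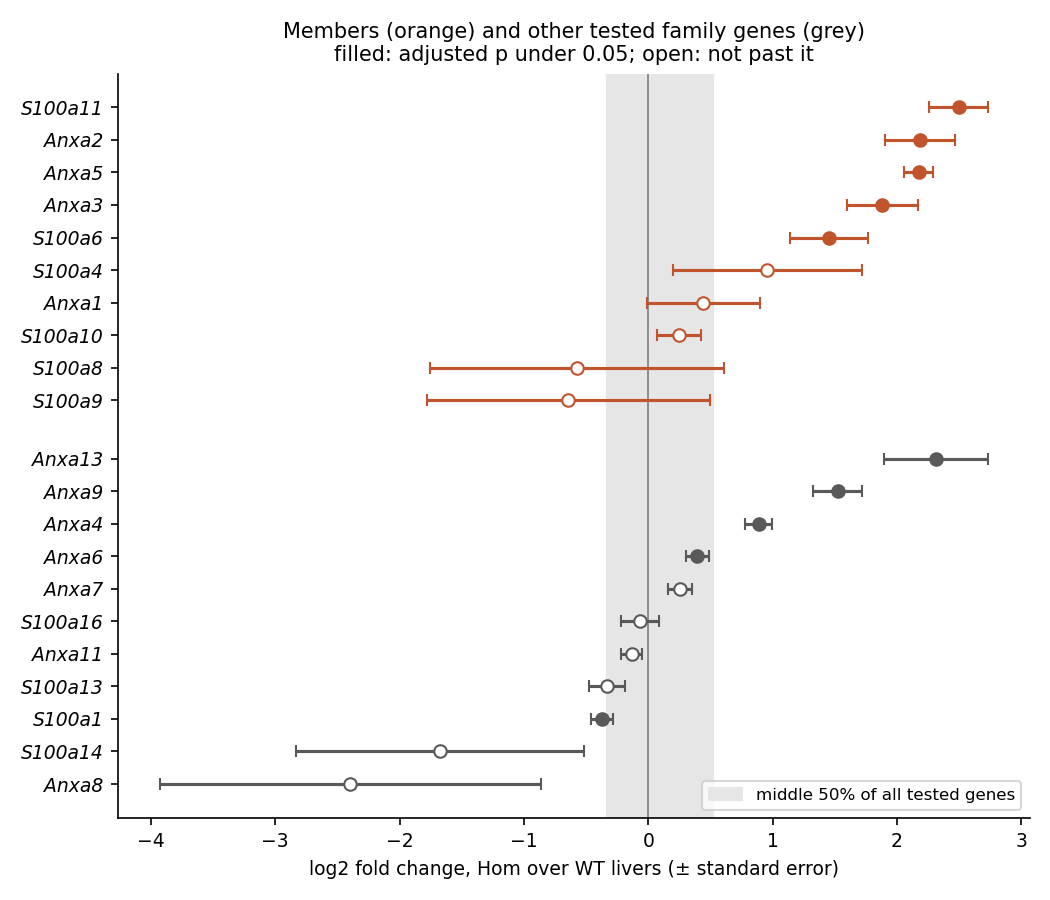
Log2 fold change between Hom and WT livers, with its SE, for the 10 members (orange) and the 11 other annexin and S100 genes that were tested (grey). Filled points passed an adjusted p of 0.05, and the grey band spans the middle 50% of all tested genes. Members range from S100a11 at 2.50 to S100a9 at -0.64, and the SEs of Anxa8, S100a8, S100a14 and S100a9 are all above 1.

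Levels were set against each other between genes with the deposited TPM values, which are divided by gene length. In WT livers the mean was highest for S100a10, at 175.2 ± 29.4 TPM (SD, n = 3 mice), followed by Anxa5 at 71.7 ± 13.2 TPM (SD, n = 3 mice). S100a9, S100a11 and S100a8 came next on their means of 54.7, 42.2 and 41.6 TPM. S100a9 ranged from 3.46 to 149.1 TPM and S100a8 from 2.26 to 115.1 TPM, so their place in the order differed between livers, while the SD of S100a11 was 13.8 TPM. Anxa2 was at 17.4 ± 6.71 TPM (SD, n = 3 mice), and Anxa1, S100a6, S100a4 and Anxa3 followed at 9.62, 7.42, 4.04 and 3.15 TPM, each neighbour within the SD of the one before it or after it. In Hom livers Anxa5 came first in each liver, at 497.0 ± 77.5 TPM (SD, n = 3 mice). S100a11 was second in each, at 362.0 ± 32.7 TPM, followed by S100a10 at 325.6 ± 23.9 TPM (SD, n = 3 mice), and these neighbours lay close together. Anxa2 came next in each Hom liver, at 122.2 ± 20.3 TPM (SD, n = 3 mice). S100a9 and S100a8 followed on their means of 49.8 and 39.8 TPM, again with wide ranges, then S100a6 at 31.0 ± 2.64 TPM (SD, n = 3 mice). Anxa1 at 19.9 ± 4.09 TPM and Anxa3 at 17.5 ± 3.16 TPM (SD, n = 3 mice) did not differ beyond their spread. The last place in each Hom liver belonged to S100a4, at 12.3 ± 1.81 TPM (SD, n = 3 mice). Together S100a8 and S100a9 made up 44.4% of the summed TPM of the 10 members in WT replicate 1, but 1.98% and 4.81% in the other WT livers and at most 11.2% in any Hom liver. TPM is not corrected for library composition. On that scale all 3 Hom livers lay above all 3 WT livers for 8 members, including Anxa1, S100a4 and S100a10, which overlapped on the TMM scale. The share of all genes with this order in TPM was not computed, so the count of 8 is not read as a result about the members.

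Among the other members of both families, 4 of 7 tested annexins rose and 1 of 4 tested S100 genes fell. Of all tested genes 21.5% were higher and 20.1% lower, so 1 of 4 lower is close to the share of all genes. Of 8 other annexin genes, 7 had enough counts, and Anxa13 (log2 fold change 2.31, SE 0.42), Anxa9 (1.52, SE 0.20), Anxa4 (0.89, SE 0.11) and Anxa6 (0.39, SE 0.092) passed, with adjusted p of 0.00567, 0.00170, 0.00132 and 0.0146 with edgeR. Without WT replicate 2, Anxa6 did not pass (0.39, adjusted p = 0.0511, edgeR), which left 3 higher. Anxa13, an annexin of intestinal and kidney epithelium, was at 0.61 ± 0.25 CPM in WT and 3.08 ± 1.09 CPM in Hom livers (SD, n = 3 mice). Anxa7 was at 105.2 ± 7.57 and 125.9 ± 10.3 CPM and Anxa11 at 48.2 ± 3.93 and 44.0 ± 1.72 CPM in WT and Hom livers (SD, n = 3 mice), and neither passed. Of the other S100 genes, 9 of 12 listed were in the table and 4 had enough counts. S100a1 fell from 99.7 ± 7.48 to 77.1 ± 3.67 CPM (SD, n = 3 mice), a log2 fold change of -0.37 (SE 0.086, adjusted p = 0.0137, edgeR). With library size alone it was 0.079 and with a correction for gene length -0.13, and it did not pass under either, nor without WT replicate 2 (-0.35), Hom replicate 2 (-0.36) or Hom replicate 3 (-0.34). All 6 S100 members lie on chromosome 3 with most of the family. In the RefSeq annotation S100a5 lies between S100a4 and S100a6, and a pseudogene lies between S100a11 and S100a10. Neighbours differed in their values, as S100a11 had a log2 fold change of 2.50 and S100a10 of 0.25.

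Genes for receptors and partners of these proteins were listed as well, and of 12 tested 6 rose and 1 fell. By the same test 21.5% of all tested genes were higher and 20.1% lower. Of the 6 that rose, 4 belong to the plasminogen system that annexin A2 and S100A10 hold at the cell surface. Plat, which encodes tissue plasminogen activator, was at 0.73 ± 0.15 CPM in WT and 11.7 ± 2.03 CPM in Hom livers (SD, n = 3 mice), a log2 fold change of 4.00 (SE 0.23, adjusted p = 1.83e-04, edgeR). Plau, the urokinase gene, and Plaur, which encodes its receptor, had log2 fold changes of 1.91 (SE 0.27) and 2.10 (SE 0.42). Plgrkt, another plasminogen receptor gene, was at 1.15 (SE 0.23). Ahnak, whose large product binds the complex of annexin A2 and S100A10, was at 1.58 (SE 0.29). The adjusted p of these 4 genes were 0.00249, 0.00810, 0.00851 and 0.00630 with edgeR. Plg, which encodes plasminogen and is expressed by hepatocytes, fell by 0.53 on the log2 scale (SE 0.16, adjusted p = 0.0357, edgeR), from 2713 to 1884 CPM. That call was lost with the replicate block, with library size alone and with upper-quartile factors. It was also lost in 5 of 6 fits with 1 liver left out, and it held without Hom replicate 1 (-0.63). Before TMM scaling the groups overlapped, at 47448, 44831 and 42520 counts of Plg in WT livers 1, 2 and 3. Hom livers 1, 2 and 3 had 46214, 39974 and 42885 counts, so the fall depends on the scaling.

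Receptors of S100A8 and S100A9 gave mixed values. Tlr4, a receptor of innate immunity, rose from 2.48 ± 0.17 to 5.49 ± 0.30 CPM (SD, n = 3 mice), a log2 fold change of 1.14 (SE 0.17, adjusted p = 0.00258, edgeR). Bsg and Mcam did not pass, with log2 fold changes of 0.17 (SE 0.11) and 0.54 (SE 0.18), though Mcam passed without WT replicate 1 (0.71, adjusted p = 0.0188, edgeR). The formyl peptide receptor genes Fpr1 and Fpr2, through which annexin A1 acts, followed the same liver as S100a8. Fpr1 had 123 counts in WT replicate 1, 30 and 25 in the other WT livers and 59 to 72 across the Hom group. Fpr2 had 49 counts in WT replicate 1, 13 and 11 in the other WT livers and 28 in each Hom liver. Their log2 fold changes were -0.27 (SE 0.55) and -0.22 (SE 0.53), and neither passed.

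Other genes known from injured liver moved with the members that rose. Of 11 such companion genes, 10 rose and 0 fell, with a median log2 fold change of 1.53 (0 fell at an unadjusted p under 0.05 or with DESeq2). Cd24a, a surface glycoprotein of immature epithelium, had the largest log2 fold change, 2.91 (SE 0.46). It was followed by Cd9 (2.30, SE 0.30), Tmsb10 (1.95, SE 0.22), which binds actin, and the keratin gene Krt8 (1.75, SE 0.16), with adjusted p of 0.00337, 0.00179, 0.00112 and 5.88e-04 for the 4 genes with edgeR. Lgals3, the gene of galectin-3, did not pass (log2 fold change 0.47, SE 0.51) unless WT replicate 3 was left out (1.34, adjusted p = 0.0128, edgeR). It had 404 counts in WT replicate 3, the highest WT liver, and 79 in WT replicate 2, the order seen for Anxa1 and S100a4.

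RNA was taken from whole liver, in which fewer cells of a type and less RNA per cell cannot be told apart, and markers of other cell types moved in the same comparison. Among all tested genes 21.5% were higher and 20.1% lower. Bile duct markers were higher for 11 of 12 genes, and their summed level was 84.8 to 115.6 CPM in WT and 709.6 to 963.8 CPM in Hom livers. Spp1, the osteopontin gene, was among them (log2 fold change 3.78). It made up most of the Hom sums, at 520.1, 534.4 and 732.6 CPM in Hom livers 1, 2 and 3, so these sums largely follow 1 gene. Of 12 tested stellate cell and fibroblast markers 7 were higher and 2 lower, with sums of 352.1 to 415.1 CPM in WT and 743.3 to 813.9 CPM in Hom livers, and Col1a1 had a log2 fold change of 3.32. Monocyte and macrophage markers were higher for 7 of 12, with sums of 181.1 to 378.6 and 572.4 to 767.0 CPM. The largest log2 fold change in that list was 4.75, for Cx3cr1. Kupffer cell markers were lower for 2 of 6, Clec4f among them (log2 fold change -1.59, and -1.06, -1.29 and -1.68 without passing when WT replicate 1, Hom replicate 1 or Hom replicate 3 was left out), and endothelial markers were lower for 6 of 10. WT replicate 1 had the highest WT sum of both the monocyte and macrophage list, 378.6 CPM, and the Kupffer cell list, 360.1 CPM. Of the tested mesothelial markers 2 of 5 were higher, and of the lymphocyte markers 1 of 5, which is near the share of all tested genes. Hepatocyte markers were lower for 11 of 12 genes, and the sum went from between 153398 and 185484 CPM in WT to between 61100 and 80888 CPM in Hom livers. No marker of the bile duct list had 0 counts in any liver. The part of these cell types in the higher levels of Anxa2, Anxa3, Anxa5, S100a6 and S100a11 was not tested.

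Over the 6 livers, the genes closest in pattern to Anxa2 and S100a9 were different ones. By Pearson's r of log2 CPM, the 3 genes most like Anxa2 were Uprt, Ccdc66 and Col5a2, each with r of 1.00 after rounding, and Col5a2, a fibrillar collagen gene, rose by a log2 fold change of 2.72. The 3 most like S100a9 were Ulk3, Mmp9 and Gfra2, with r of 0.99, 0.98 and 0.98, and Mmp9 encodes a gelatinase of neutrophil granules. Among the members, S100a8 and S100a9 had r of 1.00 with each other, while Anxa2 had r of 0.98 with S100a11 and 0.16 with S100a9. These values describe 6 points that share libraries and fall into 2 groups.

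**Figure D5:**
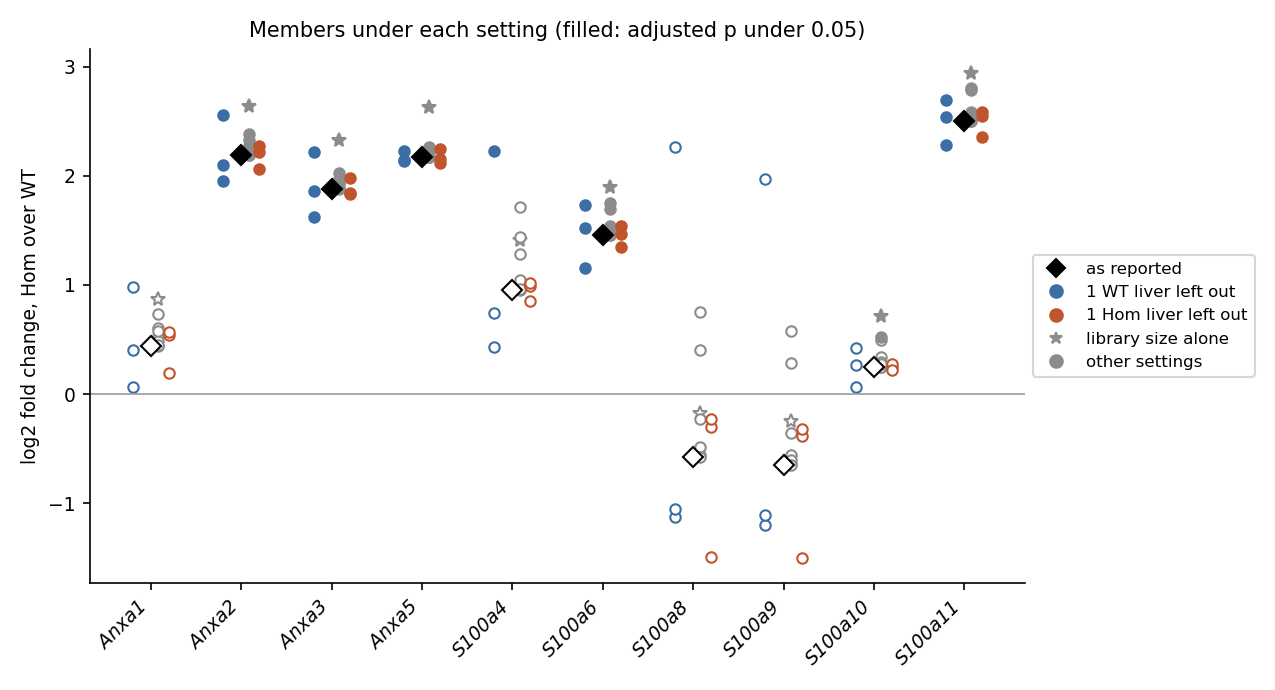
Log2 fold change of each member between Hom and WT livers under every processing setting tried, with the reported value as a black diamond and fits without 1 WT liver in blue or 1 Hom liver in orange (filled, adjusted p under 0.05). Anxa2, Anxa3, Anxa5, S100a6 and S100a11 stay above 1 and filled throughout, while S100a8 and S100a9 move from -0.57 and -0.64 to 2.26 and 1.97 without WT replicate 1.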

How the data were processed

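RNA from 3 WT and 3 Hom mouse livers was extracted with Trizol and sequenced on the DNBSEQ platform. The authors deposited, per liver and for 17975 genes, expected counts (estimated by RSEM and not always whole), FPKM and TPM. The submitters' processing notes name HISAT2 2.0.4, Bowtie2 2.2.5, RSEM 1.2.12 and the build mm9; the annotation is not given in the sources used here. The authors' FPKM and TPM are divided by gene length and library size; the deposited FPKM served only to derive gene length (99.8% of tested genes) and the deposited TPM to compare levels between genes. The group mean columns carry crossed names (all 17975 genes, tolerance 0.01) and entered no result. Promoters and gene order are from RefSeq on GRCm38.p6.

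Estimated counts were rounded and tested in R 4.3.3 with edgeR 4.0.16 (filterByExpr, TMM, glmQLFit, glmQLFTest, Benjamini-Hochberg over 13805 genes, threshold 0.05, no minimum fold). Each SE is the absolute log2 fold change over the square root of F. For ratios 0.5 counts were added. Patterns were compared among genes with a mean of at least 1 CPM (prior count 2). Alternatives were DESeq2 1.42.0, other scalings and filters, the replicate block, a loess correction for gene length, a minimum absolute log2 fold change of 1 and each liver left out. The procedure was tested on simulated data. Named genes were the members, Nek7, from each other list at most 4 genes past the threshold with the largest absolute log2 fold change and at most 2 others with the highest mean CPM, and the 3 genes most like Anxa2 and S100a9; Plg, Tlr4, Plgrkt, Fpr1, Fpr2, Anxa8, S100a14, Alb, the Y-linked genes and the 4 granule genes beside Ngp were named after their values were seen. One gene that the rule names is not reported here. The members and lists were chosen with earlier results of these data known. No pair of libraries in a group agreed within counting error (smallest chi-square 23.8 per degree of freedom). Replicates are separate mice, 1 liver each, per the paper's methods.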

Additional observations from a re-analysis of the deposited data

How the results depend on the processing

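Across 15 alternatives, 5 members were higher in 12 of them and 6 in 3 (library size alone, block plus gene length correction, and without WT replicate 3), and 0 were lower. Over the reported fit and these alternatives, between 13.2% and 47.6% of all tested genes were higher and between 4.17% and 20.8% lower. The members' median log2 fold change was 1.65 with library size alone, 1.29 with upper-quartile factors, 1.71 over genes reaching 10 counts in all livers (8 members), 1.48 with the replicate block, 1.49 with the gene length correction, 1.73 with that correction plus the block, and 0.79 to 2.03 with 1 liver left out.

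Same-numbered livers are different mice and did not deviate together (correlations of -0.096 to -0.046), and 0 of 3 correlated best with its own number. With the replicate block S100a8 was at 0.41 and S100a9 at 0.28, and with block and gene length correction at 0.75 and 0.58. Under the same 2 block fits Ngp was at 0.13 and 0.28, Fpr1 at 0.032 and 0.17, Fpr2 at 0.024 and 0.17, and Msln at -0.83 and -0.79. With library size alone Anxa11 was at 0.32, S100a1 at 0.079, Fpr1 at 0.13 and Fpr2 at 0.19.

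With 1 liver left out, the lowest and highest log2 fold changes were -1.49 and 2.26 for S100a8, -1.50 and 1.97 for S100a9, -4.33 and 6.39 for Ngp, -0.63 and 0.73 for Fpr1, and -0.56 and 0.69 for Fpr2, each highest without WT replicate 1. They were -4.14 and 1.41 for Anxa8 and -2.78 and 0.34 for S100a14, each highest without WT replicate 3, and -2.67 and 1.19 for Msln, lowest without Hom replicate 1. The cause of these changes of direction was not tested, beyond the fewer livers in each fit.

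When a minimum log2 change of 1 was required, the other annexin and S100 genes had 2 higher and 0 lower. Their lower count was 0 with library size alone and with the gene length correction with or without the block. With 1 liver left out the lower count was 0 to 1 and the higher count 3 to 4. The higher count was 6 with library size alone and 5 with upper-quartile factors. For receptors and partners the lower count was 0 with library size alone, upper-quartile factors, the replicate block, block plus length correction and the minimum change, and 0 to 1 with 1 liver left out. Of 138 comparisons of members with an alternative, 6 changed direction and 3 gained significance. The lowest count in a liver was 2 for S100a4, 9 for S100a8, 19 for S100a9, 29 for S100a6 and 33 for Anxa3. S100a8 and S100a4 could not be tested over genes reaching 10 counts in all livers.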
